A study of Callithrix jacchus with 20 samples.

Results

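Embryoid bodies (EBs) of the common marmoset (Callithrix jacchus) were compared, gene by gene, with the embryonic stem cells (ESCs) of the same control lines. The comparison takes 6 of the 20 RNA-seq libraries of the series, chosen by their labels: they are the fertilization-derived lines with a library at both stages, paired by line number. The 3 control EB libraries were of lines #13 and #37, from natural fertilization (NAT), and of line #17, from in vitro fertilization (IVF). The 3 control ESC libraries were of the same lines. All 6 are labelled wild type. In the study these lines were the yardstick for ESCs made by somatic cell nuclear transfer (ntESCs) from wild-type (WT) and GFP-transgenic fibroblasts, and for EBs grown from them (ntEBs). EBs were aggregates of dissociated cells, kept for 30 days in non-adherent dishes in ESC medium with 5% KnockOut Serum Replacement, with 50 µM of the ROCK inhibitor Y-27632 on day 1. The passages of control ESCs ran over 7 to 21. The growth protocol of the labels, written for ntESCs, names a coated plate and 4 ng/ml bFGF. Each line gave 1 library per stage, so a replicate is a cell line. Nothing in the labels says whether the lines share parents. A p-value here rests on these 3 lines alone, with the spread of each gene drawn towards that of genes of similar level. Control ESC #15 (IVF) has no EB library and enters only an alternative fit.

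Pluripotent stem cells are held in their state by a core of transcription factors, among them POU5F1, NANOG and SOX2, and in primates also by FGF and Nodal or activin signals. Once such cells aggregate and the signals are withdrawn, the core is shut down and cells of several embryonic and extraembryonic lineages arise side by side. An EB library is therefore an average over a mixture of cells. In such bulk samples fewer cells of a type and less RNA per cell cannot be told apart.

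Levels are in TPM, the share of a library's transcripts that falls to a gene once reads are divided by its length, scaled so that each library sums to 1000000. The EB and the ESC libraries came in separate tables, and the table, the stage and any difference in handling between the stages cannot be told apart. TPM is scaled to the same sum in each library, and values were set across the tables on that scale. A larger share of abundant genes lowers the values of all others on it. Quantile normalization and centring on the median were therefore run as alternatives. Genes present in both tables (21184) held 99.7 to 99.95% of each library. Of these, 16178 genes that averaged 0.5 TPM or more were tested with limma on log2(TPM + 0.1), with the line as a block. A gene was called at a Benjamini-Hochberg adjusted p under 0.05. Fold changes are control EB over control ESC on that scale, which understates the change of genes near 0 TPM. The 3 values of a stage are given in the order #13, #17 and #37. Control EBs had 13898 to 14134 genes at 1 TPM or more and control ESCs had 13929 to 14141. The 10 most abundant genes held 9.09 to 9.35% of a control EB library and 4.78 to 5.06% of a control ESC library.

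Stage was the main axis of difference between the libraries. The first principal component held 81.0% of the variance and separated the 3 control EBs from the 3 control ESCs. Control EBs had 3874 genes higher (23.9% of those tested) and 6234 lower (38.5%). Strong calls, which also changed at least 4-fold, numbered 1519 higher (9.39%) and 1639 lower (10.1%). The 2 stages did not overlap in 69.3% of all genes tested, called or not. Many genes named below were picked for large changes, which favours separate stages. Statements of no overlap describe those genes and are no added support. The median log2 fold change over all genes was -0.26, which quantile normalization moved by 0.17 and centring on the median by 0.12. Among called genes 38.3% were higher, a share that became 45.9% after quantile normalization. Genes were also counted by lists of a lineage, pathway or process, to be read beside the 23.9% higher and 38.5% lower of all genes tested. The lists were chosen with earlier results of these data known, so their counts are descriptive and no independent support.

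**Figure D1:**
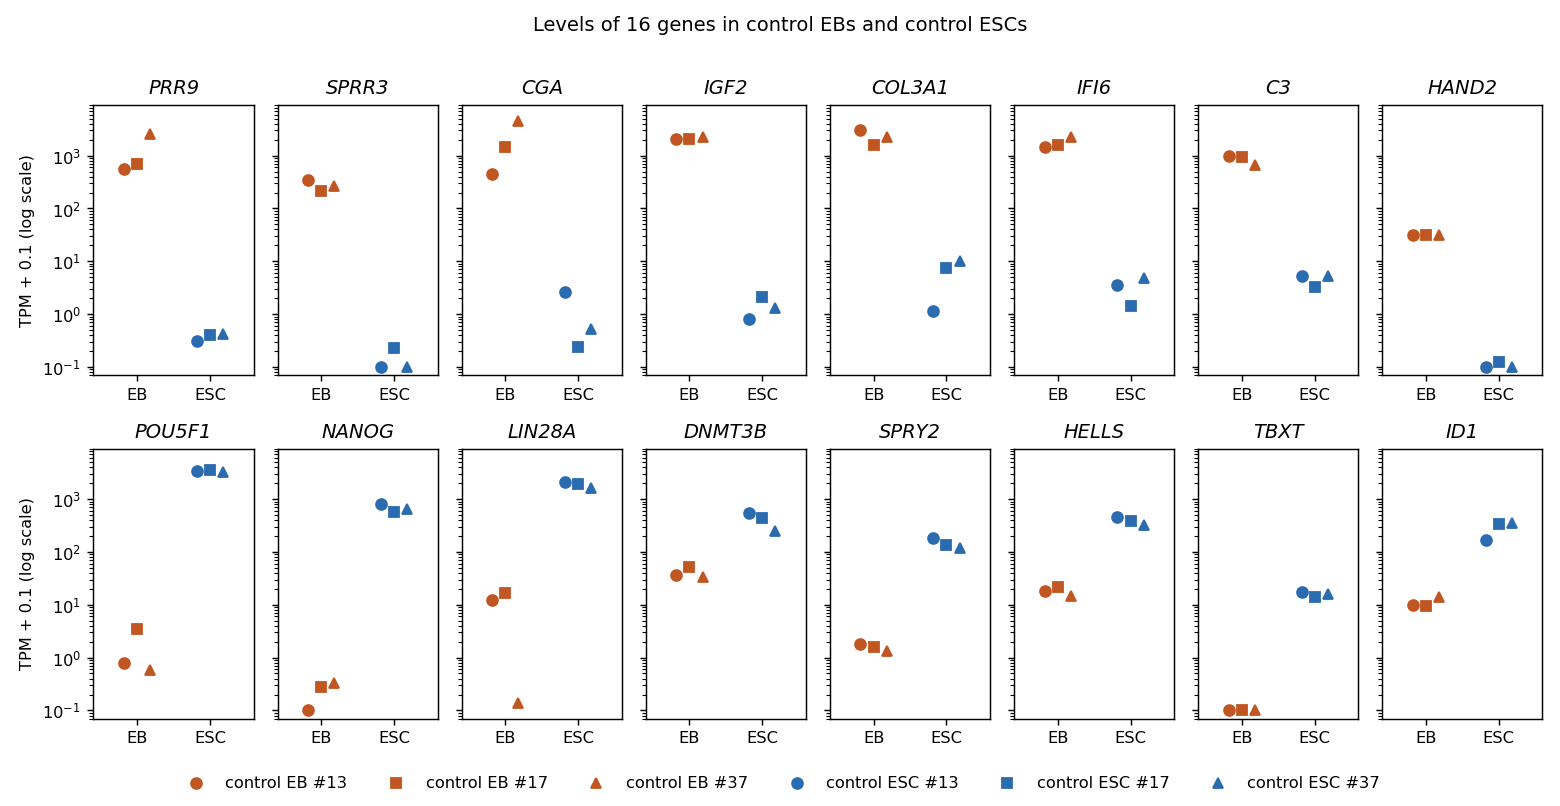
TPM of 16 genes in each of the 6 libraries (y axis, TPM + 0.1 on a log scale), control EBs left of control ESCs, with 1 symbol per line. The 8 genes of the upper row stand above 20 TPM in every control EB library and the 8 of the lower row above 10 TPM in every control ESC library, and the stages overlap in none of them.

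Genes of the pluripotent state were lower in control EBs almost throughout. Of 30 tested members of the pluripotency list 28 were lower, 24 of them strongly, and 2 were higher (median log2 fold change -3.77). POU5F1, which encodes the core factor OCT4, was at 0.70, 3.32 and 0.487 TPM in control EBs, against 3358, 3506 and 3233 TPM in control ESCs. NANOG, its partner, was at 0, 0.176 and 0.229 TPM in control EBs, against 791, 571 and 652 TPM in control ESCs. Line #17 kept the most POU5F1 and line #13 was listed at 0 for NANOG, and neither gene overlapped between the stages. SOX2, the third core factor, was at 0, 0 and 0.112 TPM in control EBs, against 207, 151 and 142 TPM in control ESCs (log2 fold change -10.32, standard error 0.36, adjusted p = 0.000219). PRDM14, a repressor of differentiation genes in pluripotent and germ cells, was at 0, 0 and 0.129 TPM in control EBs, against 378, 210.3 and 195 TPM in control ESCs (log2 fold change -10.89, standard error 0.43, adjusted p = 0.000249). TDGF1, the Nodal co-receptor CRIPTO, was at 0, 0.546 and 0.783 TPM in control EBs, against 1511, 1172 and 1138 TPM in control ESCs (log2 fold change -11.68, standard error 0.70, adjusted p = 0.000333). SOX2, PRDM14 and TDGF1 were below 1 TPM in every control EB. The decreases of ZIC2, a zinc finger factor of primed pluripotent cells, VRTN, which encodes vertnin, and DPPA5, an RNA-binding protein gene of the epiblast, were also among the 12 largest. They ranged over 0 to 0.179 TPM in control EBs and 160.1 to 239 TPM in control ESCs for ZIC2, over 0 to 0.172 TPM in control EBs and 80.6 to 104 TPM in control ESCs for VRTN, and over 0 to 0.235 TPM in control EBs and 48.4 to 391 TPM in control ESCs for DPPA5.

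Other members of the list kept a clear level. DPPA4, a chromatin protein gene of pluripotent cells, was at 39.0, 42.7 and 34.5 TPM in control EBs, against 619, 450.5 and 439.7 TPM in control ESCs (log2 fold change -3.68, standard error 0.14, adjusted p = 0.000245). ZFP42, known as REX1, was at 69.9, 92.5 and 51.8 TPM in control EBs, against 159, 165 and 157 TPM in control ESCs (log2 fold change -1.21, standard error 0.16, adjusted p = 0.00246). UTF1, a chromatin factor of pluripotent cells, was at 18.6, 24.0 and 20.7 TPM in control EBs, against 109, 90.6 and 86.2 TPM in control ESCs. None of them overlapped between the stages, and all stood above 10 TPM in every control EB. The paralogs LIN28A and LIN28B, whose products block maturation of let-7 microRNAs, parted. LIN28A was at 12.0, 16.9 and 0.0401 TPM in control EBs, against 2146, 1897 and 1607 TPM in control ESCs (log2 fold change -9.25, standard error 1.33, adjusted p = 0.00302), with almost none in EB #37. LIN28B was at 222, 229 and 118 TPM in control EBs, against 347, 268 and 150.5 TPM in control ESCs, with overlap between the stages (log2 fold change -0.41, standard error 0.11, adjusted p = 0.0263). Its call was lost without line #13 (adjusted p = 0.0849), #17 (adjusted p = 0.0554) or #37 (adjusted p = 0.0653). CDH1, the epithelial cadherin, rose, at 468, 553 and 426 TPM in control EBs, against 204, 178 and 169.7 TPM in control ESCs (log2 fold change 1.39, standard error 0.11, adjusted p = 0.000628). TFCP2L1, a transcription factor of naive pluripotency and of epithelia, was the other member that rose, at 36.3, 34.6 and 19.9 TPM in control EBs, against 14.1, 6.21 and 3.65 TPM in control ESCs (log2 fold change 2.08, standard error 0.26, adjusted p = 0.00202).

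FGF signalling runs from secreted ligands through receptor kinases to induced genes, many of which feed back on the pathway. Its genes were lower at each of these levels. Of 18 tested members 15 were lower, 10 of them strongly, and 2 higher (median log2 fold change -2.19). Of the ligands, FGF4 was listed at 0 TPM in all 3 control EBs, against 30.1, 11.2 and 8.35 TPM in control ESCs. FGF2, the factor supplied as bFGF in ESC culture, was at 13.0, 16.4 and 12.4 TPM in control EBs, against 30.4, 48.5 and 33.4 TPM in control ESCs (log2 fold change -1.40, standard error 0.13, adjusted p = 0.000898), a call lost in a fit over 16 libraries that adds the nuclear transfer lines (adjusted p = 0.0603). The receptor gene FGFR1 was at 15.6, 11.1 and 10.1 TPM in control EBs, against 151, 178 and 156 TPM in control ESCs (log2 fold change -3.73, standard error 0.18, adjusted p = 0.000263). FGFR2, a receptor of many epithelia, ran the other way, at 113, 134 and 88.1 TPM in control EBs, against 22.2, 16.3 and 6.51 TPM in control ESCs (log2 fold change 3.04, standard error 0.27, adjusted p = 0.000757). No library of these genes overlapped between the stages. The feedback inhibitor SPRY2 was at 1.71, 1.47 and 1.21 TPM in control EBs, against 183, 136 and 117 TPM in control ESCs (log2 fold change -6.53, standard error 0.14, adjusted p = 0.000149). Its relative SPRY4 was at 3.47, 2.84 and 3.09 TPM in control EBs, against 185, 222 and 256 TPM in control ESCs. The ETS factor ETV4, an induced gene, was at 0.850, 0.793 and 0.454 TPM in control EBs, against 143, 105 and 168 TPM in control ESCs (log2 fold change -7.45, standard error 0.30, adjusted p = 0.000249). The induced genes were low in all 3 control EBs and high in all 3 control ESCs. The 23 members in both tables summed to 337, 349 and 239.7 TPM in control EBs, against 1265, 1235 and 1187 TPM in control ESCs (exact permutation test, two-sided p = 0.1, the smallest that 3 against 3 libraries can give). FGF1, a ligand of all FGF receptors, was the other member that rose, at 22.5, 12.6 and 14.1 TPM in control EBs, against 3.22, 2.93 and 2.55 TPM in control ESCs.

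Control ESCs carried transcripts of the primitive streak, the site where mesoderm and endoderm leave the epiblast, and control EBs had lost most of them by day 30. Of 16 tested members 12 were lower, all strongly, and 1 was higher (median log2 fold change -5.12). TBXT, the brachyury factor, was listed at 0 TPM in all 3 control EBs, against 17.3, 14.0 and 15.7 TPM in control ESCs. EOMES, a T-box factor of the early streak, was at 0, 0.0770 and 0.281 TPM in control EBs, against 5.10, 15.7 and 17.1 TPM in control ESCs. CER1, a secreted inhibitor of Nodal and BMP, was at 0.120, 0.115 and 0.120 TPM in control EBs, against 30.8, 372 and 201 TPM in control ESCs (log2 fold change -9.24, standard error 0.70, adjusted p = 0.000538). ESC #13 had the least CER1 and EOMES of the control ESCs, yet more than any control EB. NODAL, the streak-inducing ligand, was at 0.0732, 0.705 and 0.147 TPM in control EBs, against 16.8, 49.9 and 45.0 TPM in control ESCs (log2 fold change -6.69, standard error 0.36, adjusted p = 0.000287). NOTO, a notochord factor outside the list, was listed at 0 TPM in all control EBs, against 129, 110.0 and 65.4 TPM in control ESCs. WNT3A, a ligand of the later streak, was the member that rose, at 4.04, 3.75 and 14.4 TPM in control EBs, against 0.830, 1.24 and 2.12 TPM in control ESCs.

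Genes of stratified epithelia were among the largest increases. Of 22 tested members of the epidermis list 17 were higher, 14 of them strongly, and none was lower (median log2 fold change 3.57). The mean summed TPM of the list in control EBs was 4.19 times that in control ESCs, and 1.96 times without its most abundant member, PRR9. PRR9, a proline-rich protein gene of the epidermal differentiation cluster, was at 565, 709 and 2616 TPM in control EBs, against 0.203, 0.302 and 0.313 TPM in control ESCs (log2 fold change 11.43, standard error 0.40, adjusted p = 0.000212). SPRR3, an envelope precursor gene of the same cluster, was at 345, 212 and 266 TPM in control EBs, against 0, 0.132 and 0 TPM in control ESCs (log2 fold change 10.99, standard error 0.41, adjusted p = 0.000245). KRT17, a keratin of basal and activated epidermal cells, was at 139, 62.0 and 77.1 TPM in control EBs, against 0.0710, 0.211 and 0.0729 TPM in control ESCs. Every control EB exceeded every control ESC in these genes, and EB #37 had by far the most PRR9. TP63, the master factor of stratified epithelia, was at 6.16, 6.63 and 4.23 TPM in control EBs, against 0.0683, 0.0507 and 0.0876 TPM in control ESCs (log2 fold change 5.07, standard error 0.39, adjusted p = 0.000544). GRHL1, a factor of epidermal differentiation, was at 104, 138 and 150.1 TPM in control EBs, against 5.43, 5.22 and 3.87 TPM in control ESCs. SLPI, a protease inhibitor of mucosal surfaces outside the list, was at 32.5, 31.1 and 128 TPM in control EBs, against 0, 0 and 0 TPM in control ESCs and had the ninth largest increase. The defining keratins of basal epidermis were near 0. KRT5 was at 0.0512, 0 and 0.695 TPM in control EBs, against 0.354, 0.0877 and 0.0682 TPM in control ESCs. KRT14, its partner, was at 0.265, 0.680 and 1.33 TPM in control EBs, against 0, 0 and 0.0392 TPM in control ESCs. Both fell below the mean needed for the test, so PRR9, SPRR3 and KRT17 rose while the pair that defines keratinocytes stayed near 0.

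Genes of simple epithelia moved both ways, with 8 of 23 higher and 12 lower. CLDN3, a tight junction claudin, had the largest increase, at 302, 492 and 267 TPM in control EBs, against 75.9, 56.3 and 50.7 TPM in control ESCs (log2 fold change 2.50, standard error 0.22, adjusted p = 0.000759). EPCAM, an adhesion molecule of pluripotent cells and epithelia, fell, at 271, 363 and 256 TPM in control EBs, against 1791, 1396 and 1463 TPM in control ESCs (log2 fold change -2.39, standard error 0.17, adjusted p = 0.000446). KRT8, a keratin of simple epithelia, also fell, at 1092, 1362 and 1069 TPM in control EBs, against 1763, 2532 and 3042 TPM in control ESCs, a call lost in the fit over 16 libraries (adjusted p = 0.119). All 3 were without overlap, and KRT8 was abundant in every library. EB #17 had the highest level of the control EBs in 21 of the 23 members, against 36.8% of all genes tested.

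Trophoblast, which makes the hormones of the placenta, and amnion are extraembryonic epithelia, and their genes rose. Of 25 tested members 19 were higher, 17 of them strongly, and 3 lower (median log2 fold change 3.90). CGA, the alpha subunit shared by glycoprotein hormones, was at 454, 1435 and 4578 TPM in control EBs, against 2.53, 0.139 and 0.433 TPM in control ESCs (log2 fold change 11.02, standard error 1.13, adjusted p = 0.00108). LOC100391685, which the RefSeq table lists with the synonym CGB, the beta subunit of chorionic gonadotropin, was at 259.8, 1113 and 3549.9 TPM in control EBs, against 2.53, 0.771 and 0.600 TPM in control ESCs (log2 fold change 9.75, standard error 1.05, adjusted p = 0.00122). It was picked after its values were seen. For both subunits EB #37 was highest and EB #13 lowest of the control EBs, and all control EBs exceeded all control ESCs. GCM1, a factor needed for the hormone-making syncytiotrophoblast, was at 13.2, 30.3 and 51.8 TPM in control EBs, against 2.80, 0.986 and 1.71 TPM in control ESCs. CYP19A1, the aromatase of estrogen synthesis, was at 7.62, 5.02 and 1.94 TPM in control EBs, against 0.0114, 0.00376 and 0.00779 TPM in control ESCs. GCM1 followed the order of the hormone subunits over the lines, and CYP19A1 had the reverse order. GATA3, a factor of trophoblast, amnion and surface ectoderm, was at 281, 444 and 369 TPM in control EBs, against 19.2, 37.4 and 51.3 TPM in control ESCs (log2 fold change 3.42, standard error 0.21, adjusted p = 0.000334). TFAP2A, which acts in the same tissues, was at 31.6, 68.5 and 107 TPM in control EBs, against 2.33, 3.32 and 6.96 TPM in control ESCs (log2 fold change 3.99, standard error 0.17, adjusted p = 0.000256). GABRP, a GABA receptor subunit of amnion, was at 35.5, 36.7 and 19.7 TPM in control EBs, against 0.598, 1.09 and 1.91 TPM in control ESCs. VTCN1, an immune checkpoint ligand of amnion and trophoblast, was at 30.1, 63.6 and 44.4 TPM in control EBs, against 1.18, 0.663 and 1.01 TPM in control ESCs. None of these genes overlapped between the stages. S100P, a calcium-binding protein of trophoblast, and ERVV-2, a retroviral envelope gene of primate placenta, lie outside the list and were among the 12 largest increases. S100P was at 1135, 1861 and 2587 TPM in control EBs, against 3.43, 0.848 and 1.76 TPM in control ESCs. ERVV-2 was at 51.6, 189 and 461 TPM in control EBs, against 0.197, 0.195 and 0.648 TPM in control ESCs. TEAD4, a factor of early trophectoderm, fell, at 9.61, 11.4 and 8.39 TPM in control EBs, against 55.2, 51.6 and 56.0 TPM in control ESCs. SDC1, a syndecan of the syncytial surface, fell too, at 17.9, 13.9 and 11.0 TPM in control EBs, against 119, 117 and 121 TPM in control ESCs. The third decrease was in ISL1, an early amnion factor, at 0.141, 0.545 and 0.486 TPM in control EBs, against 0.255, 2.55 and 3.41 TPM in control ESCs, where the stages overlapped. That call was lost without line #17 (adjusted p = 0.174) or #37 (adjusted p = 0.159).

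Mesenchymal matrix was the other large gain. Of 33 tested members 25 were higher, 21 of them strongly, and 2 lower (median log2 fold change 2.60). The 34 members in both tables summed to 22038, 13549 and 18947 TPM in control EBs, against 3527, 4693 and 5057 TPM in control ESCs (exact permutation test, two-sided p = 0.1, the smallest possible). COL3A1, a fibrillar collagen of loose connective tissue, was at 3073, 1605 and 2217 TPM in control EBs, against 1.03, 7.34 and 10.2 TPM in control ESCs (log2 fold change 8.97, standard error 0.77, adjusted p = 0.000677). COL1A1, the main collagen of bone and skin, was at 2254, 1153 and 2465 TPM in control EBs, against 204, 227 and 203 TPM in control ESCs (log2 fold change 3.14, standard error 0.26, adjusted p = 0.000642). DCN, which encodes the proteoglycan decorin, was at 2312, 1428 and 2476 TPM in control EBs, against 6.72, 40.0 and 93.8 TPM in control ESCs. EB #17 had the lowest level of the control EBs in each, and no library overlapped between the stages. LRRC17, a secreted leucine-rich repeat protein of bone, was at 201, 88.0 and 204 TPM in control EBs, against 0, 0 and 0.0516 TPM in control ESCs. MGP, an inhibitor of calcification, was at 118, 88.2 and 211 TPM in control EBs, against 0, 0.0909 and 0 TPM in control ESCs. Both were near 0 in every control ESC. EB #17 was lowest in 24 of the 33 members (25.2% of all genes tested) and EB #13 highest in 23 (33.5%). ESC #13 was the lowest control ESC in 20 (38.1%), and its part in these calls is shown by the fit without line #13, which had 25 higher and 5 lower. FN1, fibronectin, was at 2707, 1799 and 892 TPM in control EBs, against 209, 779 and 1050.3 TPM in control ESCs and did not pass (log2 fold change 1.56, standard error 0.72, adjusted p = 0.116), but passed without line #37 (adjusted p = 0.0282). Line #37 was the only line in which FN1 was lower in the control EB. The 2 members that fell were ELN, elastin, and FBLN5, which binds it. ELN was at 0.481, 0.160 and 0.446 TPM in control EBs, against 2.94, 2.11 and 1.25 TPM in control ESCs, a call lost without line #17 (adjusted p = 0.0636). FBLN5 was at 7.03, 1.56 and 3.97 TPM in control EBs, against 14.3, 9.09 and 9.66 TPM in control ESCs, a call lost over 16 libraries (adjusted p = 0.334).

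Genes of the mesenchymal cells themselves moved less uniformly, with 8 of 20 higher, all strongly, and 4 lower. PDGFRA, the receptor of mesenchymal progenitors, was at 113, 87.7 and 66.6 TPM in control EBs, against 1.89, 6.48 and 4.13 TPM in control ESCs (log2 fold change 4.51, standard error 0.43, adjusted p = 0.000897). TCF21, a factor of visceral mesenchyme, was at 9.94, 6.91 and 10.0 TPM in control EBs, against 0, 0 and 0.150 TPM in control ESCs (log2 fold change 6.04, standard error 0.41, adjusted p = 0.000423). THY1, a surface marker of cultured stromal cells that ESCs share, fell, at 1.78, 0.932 and 1.69 TPM in control EBs, against 34.6, 22.4 and 29.0 TPM in control ESCs (log2 fold change -4.23, standard error 0.19, adjusted p = 0.000261). No library of the 3 overlapped between the stages. Among matrix-modifying enzymes 14 of 23 were higher and 2 lower, or 6 lower without line #13. MMP2, a gelatinase, was at 1451, 1263 and 1069 TPM in control EBs, against 59.9, 121 and 109.9 TPM in control ESCs (log2 fold change 3.75, standard error 0.28, adjusted p = 0.000499). ADAMTS2, which trims fibrillar procollagen, was at 26.4, 16.1 and 18.9 TPM in control EBs, against 1.19, 0.645 and 0.965 TPM in control ESCs. PLAT, tissue plasminogen activator, fell, at 305, 237 and 153 TPM in control EBs, against 991, 789 and 1179.8 TPM in control ESCs. In the basement membrane, the sheet under epithelia and vessels, the linker NID2 rose, at 133, 128 and 75.4 TPM in control EBs, against 6.08, 8.40 and 9.12 TPM in control ESCs (log2 fold change 3.79, standard error 0.28, adjusted p = 0.000496). LAMA4, a laminin chain of vessels and muscle, fell, at 9.77, 2.18 and 5.50 TPM in control EBs, against 68.5, 76.6 and 87.7 TPM in control ESCs (log2 fold change -3.95, standard error 0.43, adjusted p = 0.00126). NID2 was higher in every control EB than in any control ESC, and LAMA4 lower.

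**Figure D2:**
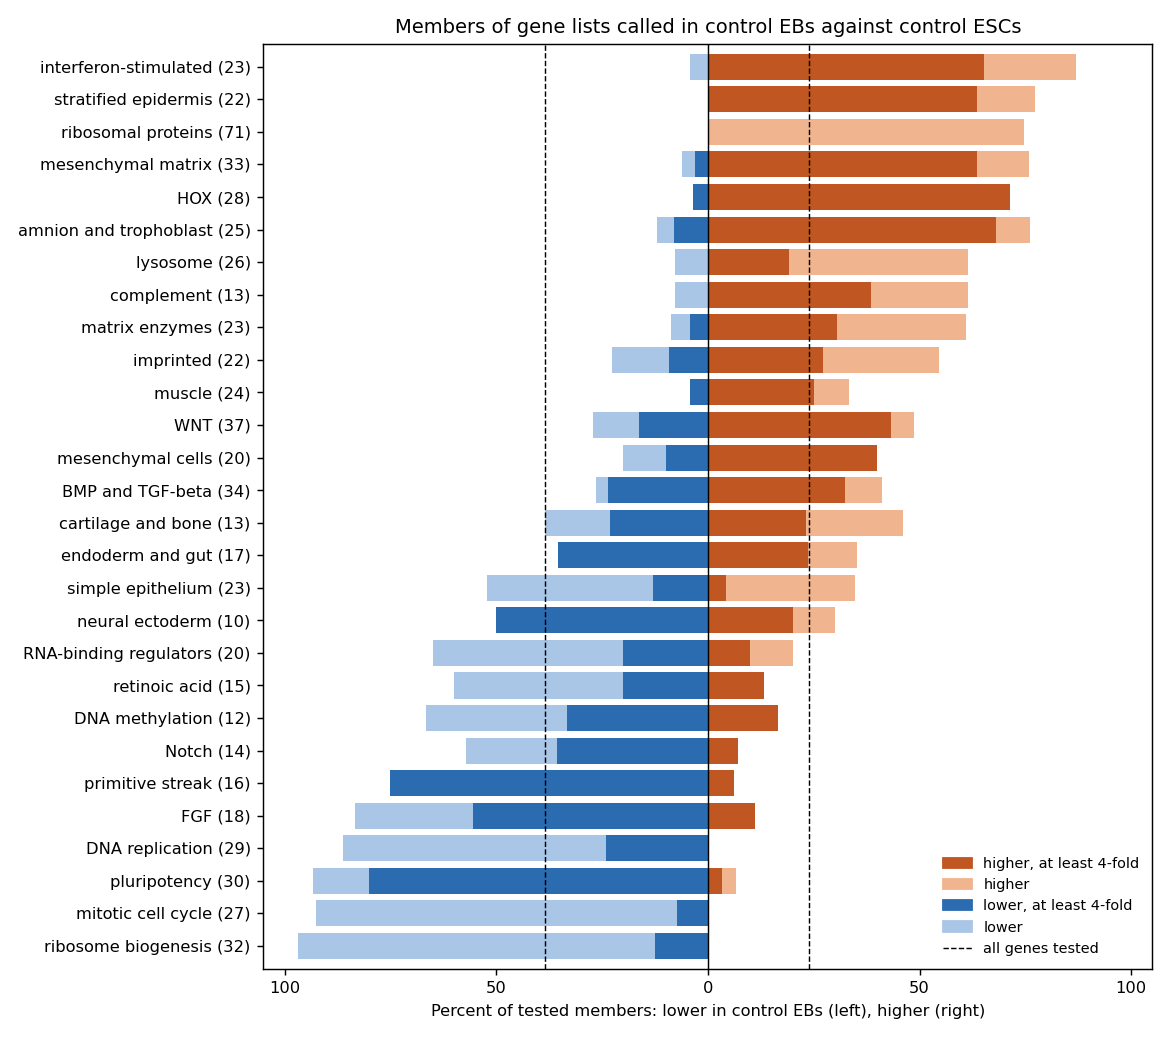
Percent of tested members called higher (right of 0) and lower (left of 0) in control EBs for 28 gene lists (y axis, with the number of tested members), the strongly called part in the darker shade. Dashed lines mark the 23.9% and 38.5% of all 16178 tested genes that were called higher and lower.

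Muscle and vessel genes rose in part, and the blood markers PTPRC and HBZ were near 0 at both stages. Of 24 tested muscle genes 8 were higher and 1 lower, with 6 lower without line #13. HAND2, a factor of heart and visceral mesoderm, was at 31.7, 31.7 and 31.8 TPM in control EBs, against 0, 0.0261 and 0 TPM in control ESCs (log2 fold change 8.20, standard error 0.29, adjusted p = 0.000219), nearly the same in all control EBs. TNNI1, the troponin I of slow and fetal heart muscle, was at 118, 143 and 70.3 TPM in control EBs, against 1.67, 1.70 and 1.35 TPM in control ESCs (log2 fold change 5.99, standard error 0.19, adjusted p = 0.000209). DES, which encodes desmin, was at 56.8, 8.28 and 24.8 TPM in control EBs, against 0.974, 0.856 and 1.11 TPM in control ESCs. EB #17 had the least DES and the most TNNI1 of the control EBs. ACTC1, cardiac actin, was at 75.1, 49.2 and 40.8 TPM in control EBs, against 17.6, 126 and 169.7 TPM in control ESCs and did not pass, but was lower without line #13 (adjusted p = 0.00346). Line #13 was the only line in which ACTC1 was higher in the control EB. The heavy chain MYH7 was not analysed here. Of 16 endothelial genes 4 were higher and 6 lower, shares near the 23.9% and 38.5% of all genes tested. Without line #17, 3 were lower. TEK, the angiopoietin receptor, rose, at 181, 114 and 79.2 TPM in control EBs, against 4.72, 5.24 and 3.35 TPM in control ESCs (log2 fold change 4.73, standard error 0.20, adjusted p = 0.000256). PECAM1, which pluripotent cells also express, fell, at 60.8, 107 and 107 TPM in control EBs, against 181, 167 and 189 TPM in control ESCs, a call lost over 16 libraries (adjusted p = 0.0599). CDH5, the cadherin that defines endothelium, was at 4.90, 1.47 and 2.75 TPM in control EBs, against 0.571, 1.10 and 1.46 TPM in control ESCs and did not pass. VWF, a clotting factor stored in vessel walls, fell, at 0.579, 0.415 and 0.183 TPM in control EBs, against 2.81, 3.10 and 3.06 TPM in control ESCs. TEK, PECAM1 and VWF were each without overlap between the stages. Of 8 tested blood and macrophage genes 2 were higher and 4 lower (median log2 fold change -1.465). The mean summed TPM of the list in control EBs was 0.598 times that in control ESCs, but 4.83 times without its most abundant member, CD14. PTPRC, the defining marker of leukocytes, was at 0.0980, 0 and 0.0844 TPM in control EBs, against 0.0121, 0.0719 and 0.0994 TPM in control ESCs. The embryonic globin HBZ was listed at 0 TPM in all control EBs, against 0.0988, 0.0977 and 0 TPM in control ESCs. Of the 5 members in the EB table alone, HBE1 was at 0 TPM in all control EBs. TYROBP, C1QA, C1QB and CD163 were at 2.10, 0.756, 0.705 and 0.697 TPM in EB #37 and at 0 TPM in EBs #13 and #17.

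Cartilage and bone genes split, with 6 of 13 higher and 5 lower, or 3 lower without line #17 or #37 (median log2 fold change 1.45). The 17 members in both tables summed to 356, 318 and 218 TPM in control EBs, against 68.4, 85.9 and 94.3 TPM in control ESCs. The mean sum in control EBs was 3.59 times that in control ESCs, and 2.52 times without its most abundant member, HAPLN1. RUNX2, the master factor of bone, rose, at 1.98, 0.80 and 1.10 TPM in control EBs, against 0, 0.121 and 0.135 TPM in control ESCs (log2 fold change 2.92, standard error 0.64, adjusted p = 0.0123). ACAN, the proteoglycan of mature cartilage, fell, at 0.0359, 0.380 and 0.135 TPM in control EBs, against 2.67, 4.91 and 2.24 TPM in control ESCs (log2 fold change -3.68, standard error 0.41, adjusted p = 0.0014). COL10A1, the collagen of hypertrophic cartilage, fell as well, at 0.126, 0.0406 and 0.0423 TPM in control EBs, against 4.85, 3.42 and 5.59 TPM in control ESCs. No library overlapped between the stages in these genes. COL2A1, the collagen that defines cartilage, was at 0.464, 0.280 and 0.327 TPM in control EBs, against 0.120, 0.298 and 0.196 TPM in control ESCs. SOX9, another cartilage marker, was higher in every control EB than in any control ESC. It was at 10.5, 18.0 and 15.4 TPM in control EBs, against 3.24, 4.65 and 8.43 TPM in control ESCs.

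Neural genes moved both ways. Of 10 tested members 5 were lower, all strongly, and 3 higher. SOX11, a factor of neural progenitors, was at 0.922, 0.140 and 0.422 TPM in control EBs, against 23.5, 23.1 and 16.9 TPM in control ESCs (log2 fold change -5.38, standard error 0.45, adjusted p = 0.00065). NES, the filament nestin of neural and pluripotent progenitors, was at 26.0, 17.3 and 10.9 TPM in control EBs, against 338, 301 and 389.6 TPM in control ESCs. The neuronal gene ELAVL3 was at 0.0917, 0.103 and 0 TPM in control EBs, against 11.1, 2.13 and 1.64 TPM in control ESCs. STMN2, which marks growing axons, was at 0.0640, 0 and 0 TPM in control EBs, against 1.36, 1.29 and 3.75 TPM in control ESCs. None of the 4 overlapped, and both neuronal genes were near 0 in control EBs. SOX6, which acts in cartilage and muscle as well, rose, at 3.61, 2.92 and 2.47 TPM in control EBs, against 0.0662, 0.126 and 0.0882 TPM in control ESCs. In the neural crest and glia list 3 of 9 tested members were higher and 5 lower, all strongly. The neural crest factors FOXD3 and SOX10 were listed at 0 TPM in all 3 control EBs. In control ESCs FOXD3 was at 38.9, 21.9 and 20.8 TPM and SOX10 at 5.86, 3.48 and 2.96 TPM. MITF, the master factor of pigment cells, rose, at 46.5, 46.3 and 39.2 TPM in control EBs, against 0.712, 1.28 and 1.33 TPM in control ESCs (log2 fold change 5.23, standard error 0.26, adjusted p = 0.000273). PMEL, which builds the pigment granule, rose too, at 195, 143 and 158 TPM in control EBs, against 24.4, 20.7 and 27.4 TPM in control ESCs. Other pigment genes did not reach the mean needed for the test, with DCT at 0.0663, 0.0638 and 0.0444 TPM and MLANA at 0.0940, 0.272 and 0.614 TPM in control EBs.

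Endoderm genes moved both ways, with 6 of 17 higher and 6 lower. SOX17, a factor of definitive endoderm, was at 0.247, 0.272 and 0.319 TPM in control EBs, against 1.97, 2.99 and 13.1 TPM in control ESCs (log2 fold change -3.54, standard error 0.56, adjusted p = 0.00404). FOXA3, a factor of liver and gut, was at 0, 0.355 and 0.666 TPM in control EBs, against 25.0, 25.6 and 20.6 TPM in control ESCs (log2 fold change -6.18, standard error 0.64, adjusted p = 0.0011). CDX2, a factor of hindgut and trophoblast, rose, at 15.0, 22.6 and 10.8 TPM in control EBs, against 0.0335, 0.618 and 0.664 TPM in control ESCs (log2 fold change 5.21, standard error 0.60, adjusted p = 0.00149). The first 2 were lower in every control EB than in any control ESC, and CDX2 was higher. PDX1, a factor of pancreas and duodenum, rose, at 4.46, 3.71 and 1.04 TPM in control EBs, against 0, 0 and 0.167 TPM in control ESCs (log2 fold change 4.28, standard error 0.80, adjusted p = 0.00712). LGR5, a receptor for R-spondins on intestinal stem cells, rose too, at 7.15, 5.85 and 6.79 TPM in control EBs, against 0.379, 0.389 and 0.417 TPM in control ESCs. Liver and yolk sac proteins were uneven between lines, with 4 of 13 tested members higher and 4 lower. SERPINA1, the plasma antitrypsin, was at 1.24, 36.3 and 0.117 TPM in control EBs and listed at 0 TPM in all control ESCs. Its call was lost without line #13 (adjusted p = 0.0796), and without line #17 its mean fell below the test's minimum. GC, the vitamin D-binding protein, was at 3.17, 40.2 and 0 TPM in control EBs, against 0.652, 0.452 and 4.96 TPM in control ESCs and was not called, and EB #17 alone had a clear level of either. LRP2, an endocytic receptor of yolk sac and kidney, rose in all 3 lines, at 291, 272 and 149.6 TPM in control EBs, against 17.9, 6.70 and 6.87 TPM in control ESCs (log2 fold change 4.59, standard error 0.26, adjusted p = 0.000304). TF, transferrin, fell, at 50.0, 64.3 and 32.7 TPM in control EBs, against 511, 529 and 556 TPM in control ESCs. ALB, which defines hepatocytes, was at most 0.349 TPM in a control EB, and AFP, in the EB table alone, at most 0.660 TPM.

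HOX genes mark position along the body axis and are normally silent in pluripotent cells. They rose as a group, with 20 of 28 tested members higher, all strongly, and 1 lower (median log2 fold change 2.77). HOXC8, a trunk gene, was at 22.2, 11.7 and 14.7 TPM in control EBs, against 0, 0 and 0.219 TPM in control ESCs (log2 fold change 6.74, standard error 0.51, adjusted p = 0.000522). HOXC6, its neighbour, was at 6.66, 8.84 and 7.60 TPM in control EBs, against 0, 0.22 and 0.0457 TPM in control ESCs (log2 fold change 5.54, standard error 0.41, adjusted p = 0.000496). HOXA5, which acts in trunk and lung, was at 3.21, 3.88 and 4.05 TPM in control EBs, against 0, 0.255 and 0.265 TPM in control ESCs. Levels were low, with HOXC8 at most 22.2 TPM, and similar in the 3 control EBs. HOXD1 ran against the rest, at 0.0684, 0 and 0 TPM in control EBs, against 9.85, 13.2 and 27.4 TPM in control ESCs (log2 fold change -7.01, standard error 0.51, adjusted p = 0.000478). The control ESCs were unequal. ESC #13 was the lowest of them in 24 of the 28 members (38.1% of all genes tested) and tied for lowest in 3 more, with a summed level of 13.3 TPM over the 38 members in both tables, against 52.1 TPM in ESC #17 and 61.0 TPM in ESC #37. The control EBs summed to 128, 117 and 109.6 TPM. HOXA11, a factor of limb and uterus, was at 3.29, 4.20 and 4.78 TPM in control EBs, against 0.269, 4.64 and 3.38 TPM in control ESCs, so that the stages overlapped and it did not pass. Members called higher numbered 17 without line #13, 15 without line #17 and 18 without line #37, and 4 were lower without line #13.

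**Figure D3:**
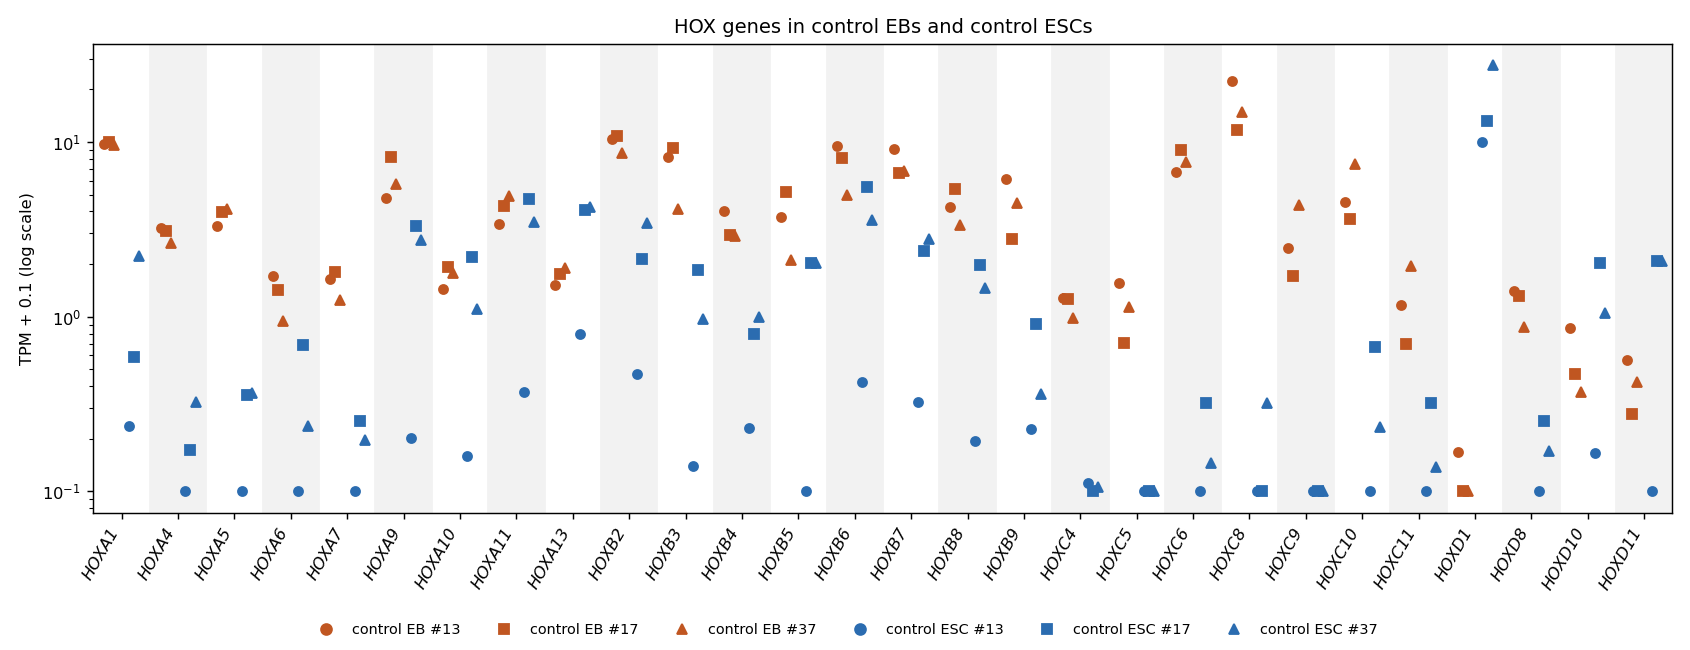
TPM of the 28 tested HOX genes (x axis, by cluster and number) in each library (y axis, TPM + 0.1 on a log scale), with control EBs drawn left of control ESCs for each gene and 1 symbol per line. ESC #13 is the lowest control ESC in 24 of 28 genes, and HOXD1 stands out as the gene that control ESCs express and control EBs do not.

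WNT signalling uses secreted ligands, frizzled receptors, secreted inhibitors and R-spondins that amplify it. Of 37 tested members 18 were higher, 16 of them strongly, and 10 lower, 6 of them strongly (median log2 fold change 1.99). Among the ligands WNT2 was at 60.2, 54.5 and 61.2 TPM in control EBs, against 0.10, 0.119 and 0.452 TPM in control ESCs (log2 fold change 7.66, standard error 0.35, adjusted p = 0.000261). WNT6, a ligand of surface ectoderm, was at 105, 61.7 and 83.7 TPM in control EBs, against 1.65, 1.30 and 3.45 TPM in control ESCs, a call that just missed the threshold over 16 libraries (adjusted p = 0.0501). WNT3, the ligand of the early streak, fell, at 0.0434, 0.126 and 0.306 TPM in control EBs, against 4.32, 6.62 and 14.2 TPM in control ESCs (log2 fold change -5.00, standard error 0.32, adjusted p = 0.000357). The stages did not overlap in any of the 3. RSPO3, an R-spondin, was at 135, 127 and 51.5 TPM in control EBs, against 0.577, 1.48 and 2.86 TPM in control ESCs (log2 fold change 6.03, standard error 0.66, adjusted p = 0.00127). DKK2, an inhibitor of the Dickkopf family, was at 30.8, 37.3 and 56.2 TPM in control EBs, against 0.0692, 0 and 0.0711 TPM in control ESCs (log2 fold change 8.14, standard error 0.32, adjusted p = 0.000249). SFRP2, an inhibitor that resembles the receptors, fell, at 70.7, 43.3 and 13.5 TPM in control EBs, against 426, 159 and 330.3 TPM in control ESCs, a call lost over 16 libraries (adjusted p = 0.1). Inhibitors thus moved in both directions. FZD7, a receptor of pluripotent cells, fell, at 49.7, 34.8 and 26.8 TPM in control EBs, against 153, 206 and 156 TPM in control ESCs. AXIN2, a target of the pathway, fell slightly, at 39.3, 44.2 and 28.1 TPM in control EBs, against 96.2, 50.7 and 53.2 TPM in control ESCs, a call lost without line #13 (adjusted p = 0.0811) or #37 (adjusted p = 0.0927).

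Of 34 tested members of the BMP and TGF-beta list 14 were higher and 9 lower. TGFB2, a TGF-beta ligand, was at 31.4, 30.9 and 13.9 TPM in control EBs, against 0.544, 0.777 and 1.29 TPM in control ESCs (log2 fold change 4.70, standard error 0.48, adjusted p = 0.00106). INHBA, the activin A subunit, was at 52.8, 21.3 and 39.5 TPM in control EBs, against 0.421, 1.00 and 3.46 TPM in control ESCs (log2 fold change 4.81, standard error 0.62, adjusted p = 0.00216). FST, the activin antagonist follistatin, rose with it, at 240.1, 166 and 234 TPM in control EBs, against 8.95, 22.2 and 23.2 TPM in control ESCs (log2 fold change 3.65, standard error 0.36, adjusted p = 0.000967). All 3 were higher in each control EB than in any control ESC. The ID genes, which encode inhibitors of differentiation factors and are induced by BMP, fell. ID1 was at 9.61, 9.19 and 14.1 TPM in control EBs, against 168, 341 and 358 TPM in control ESCs (log2 fold change -4.66, standard error 0.22, adjusted p = 0.000261). ID3 was at 34.0, 31.1 and 49.8 TPM in control EBs, against 318, 517 and 578 TPM in control ESCs (log2 fold change -3.60, standard error 0.17, adjusted p = 0.000263). ID4 was at 0.339, 0.218 and 0.113 TPM in control EBs, against 17.3, 22.4 and 24.2 TPM in control ESCs. GREM1, a secreted BMP inhibitor, also fell, at 4.53, 0.574 and 9.69 TPM in control EBs, against 60.6, 104 and 115 TPM in control ESCs. ESC #13 had the lowest level of the control ESCs in 30 of the 34 members, among them ID1 and ID3, and without line #13 the list had 13 higher and 12 lower.

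Notch and retinoic acid genes that changed were mostly lower, while hedgehog genes moved both ways. In the Notch list 8 of 14 members were lower and 1 higher, with 5 lower and 3 higher without line #37. JAG1, a ligand, was at 16.1, 12.6 and 14.4 TPM in control EBs, against 60.5, 94.2 and 127 TPM in control ESCs (log2 fold change -2.64, standard error 0.26, adjusted p = 0.000941). In the hedgehog list 3 of 9 were lower and 2 higher, near the 38.5% and 23.9% of all genes tested. Without line #13 or #37, 1 was higher. GLI1, the target that reports activity of the pathway, was at 0.142, 0.137 and 0.161 TPM in control EBs, against 15.1, 8.56 and 2.29 TPM in control ESCs (log2 fold change -4.78, standard error 0.60, adjusted p = 0.002). GAS1, a co-receptor for hedgehog ligands, rose, at 57.6, 45.6 and 44.6 TPM in control EBs, against 4.70, 10.0 and 15.6 TPM in control ESCs (log2 fold change 2.43, standard error 0.40, adjusted p = 0.00478). In the retinoic acid list 9 of 15 were lower and 2 higher, with 5 lower without line #17. RARG, a receptor, was at 18.1, 22.1 and 12.9 TPM in control EBs, against 91.5, 110.3 and 88.1 TPM in control ESCs (log2 fold change -2.47, standard error 0.14, adjusted p = 0.000288). The stages did not overlap in any of these genes. STRA6, the retinol importer, rose, at 59.9, 47.2 and 41.1 TPM in control EBs, against 8.13, 13.8 and 12.0 TPM in control ESCs.

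Genes of cell division fell together and moderately. Of 27 tested mitotic genes 25 were lower and none higher (median log2 fold change -1.22), and of 29 replication genes 25 were lower and none higher (median -1.46). MKI67, a marker of cycling cells, was at 42.3, 32.3 and 16.2 TPM in control EBs, against 105, 113 and 73.7 TPM in control ESCs (log2 fold change -1.76, standard error 0.18, adjusted p = 0.00114). CCNB1, the mitotic cyclin B1, was at 193, 178 and 144 TPM in control EBs, against 381, 389 and 345 TPM in control ESCs (log2 fold change -1.12, standard error 0.10, adjusted p = 0.000675). MCM4, a subunit of the replicative helicase, was at 62.6, 45.5 and 41.6 TPM in control EBs, against 391, 342 and 310.1 TPM in control ESCs (log2 fold change -2.81, standard error 0.10, adjusted p = 0.000223). No library of these overlapped between the stages, and transcripts of dividing cells remained in every control EB. EB #37 had the lowest level of the control EBs in 26 of the 27 mitotic genes (44.7% of all genes tested) and EB #13 the highest in 23 (33.5%). CHAF1A, a chromatin assembly factor at the replication fork, was at 21.7, 21.5 and 14.5 TPM in control EBs, against 212, 186 and 158 TPM in control ESCs (log2 fold change -3.28, standard error 0.11, adjusted p = 0.000209). In the growth arrest list 14 of 25 were higher and 3 lower. CDKN1C, an imprinted inhibitor of cyclin-dependent kinases, rose, at 300.0, 418 and 524 TPM in control EBs, against 5.97, 6.73 and 11.2 TPM in control ESCs (log2 fold change 5.70, standard error 0.12, adjusted p = 0.000149). CDKN2A, another inhibitor, was at 13.4, 9.09 and 20.9 TPM in control EBs, against 0.583, 2.95 and 2.29 TPM in control ESCs. CCND1, cyclin D1, fell, at 41.9, 25.5 and 41.4 TPM in control EBs, against 154, 285 and 280.0 TPM in control ESCs.

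Ribosomal proteins and the genes that assemble ribosomes moved apart. Of 71 ribosomal protein genes 53 were higher and none lower (median log2 fold change 0.71), a count that became 40 higher and 7 lower after quantile normalization. They summed to 210493, 204241 and 199029 TPM in control EBs, against 128788, 132365 and 131010.0 TPM in control ESCs, or 20.5% and 13.1% of a library on average (exact permutation test, two-sided p = 0.1, the smallest possible). Genes with near-identical copies, as many ribosomal protein genes have, are uncertain, since reads with more than 1 location were dropped. Of 32 ribosome biogenesis genes 31 were lower and none higher (median -1.37), and 29 were lower after quantile normalization. NCL, nucleolin, was at 281, 282 and 260.3 TPM in control EBs, against 1581, 1339 and 1279 TPM in control ESCs (log2 fold change -2.34, standard error 0.09, adjusted p = 0.000249). RRP12, which takes part in export of ribosome precursors, was at 13.8, 17.0 and 14.1 TPM in control EBs, against 94.2, 82.6 and 82.2 TPM in control ESCs. MYC, a driver of these genes, was at 57.2, 69.9 and 49.3 TPM in control EBs, against 156, 153 and 105 TPM in control ESCs (log2 fold change -1.22, standard error 0.11, adjusted p = 0.00084). The stages did not overlap in any of the 3.

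Chromatin regulators moved both ways. In the DNA methylation list 8 of 12 were lower and 2 higher, or 1 higher without line #17 or #37. DNMT3B, the de novo methyltransferase of the epiblast, was at 35.8, 52.7 and 33.3 TPM in control EBs, against 549, 439.7 and 253 TPM in control ESCs (log2 fold change -3.30, standard error 0.22, adjusted p = 0.000385). HELLS, a remodeller needed for methylation, was at 18.1, 21.7 and 14.4 TPM in control EBs, against 450.1, 378 and 327 TPM in control ESCs (log2 fold change -4.41, standard error 0.13, adjusted p = 0.000209). DNMT1, the maintenance enzyme, was at 33.3, 28.3 and 28.1 TPM in control EBs, against 37.0, 44.5 and 47.7 TPM in control ESCs, and this smaller decrease was lost without line #17 (adjusted p = 0.166) or #37 (adjusted p = 0.135). TET2, a dioxygenase that starts demethylation, rose, at 8.60, 12.4 and 15.6 TPM in control EBs, against 3.44, 3.03 and 2.01 TPM in control ESCs. Among H3K9 and polycomb genes 10 of 29 were higher and 12 lower, against 23.9% and 38.5% of all genes tested. Without line #17, 6 were higher. EHMT2, the H3K9 methyltransferase G9a, was at 26.9, 29.5 and 26.7 TPM in control EBs, against 258, 155 and 131 TPM in control ESCs (log2 fold change -2.65, standard error 0.21, adjusted p = 0.000601). JARID2, a cofactor of the H3K27 methyltransferase, was at 16.4, 26.8 and 32.4 TPM in control EBs, against 276, 237 and 177 TPM in control ESCs. CBX2, a chromobox reader of H3K27 methylation, fell, at 10.9, 12.5 and 11.8 TPM in control EBs, against 79.9, 84.1 and 68.1 TPM in control ESCs (log2 fold change -2.71, standard error 0.13, adjusted p = 0.000261). PCGF1 and BMI1, subunits of polycomb complexes, rose. PCGF1 was at 14.9, 20.3 and 26.0 TPM in control EBs, against 5.56, 6.94 and 6.68 TPM in control ESCs (log2 fold change 1.63, standard error 0.18, adjusted p = 0.00129). BMI1 was at 25.5, 23.5 and 19.9 TPM in control EBs, against 9.48, 8.37 and 11.8 TPM in control ESCs (log2 fold change 1.22, standard error 0.20, adjusted p = 0.00448). None of these 5 genes overlapped between the stages. In the germline and piRNA list 8 of 16 were lower and 3 higher, with none higher without line #17 and 1 without line #37. PIWIL1, a piRNA-binding protein of the germline, fell, at 0, 0.0843 and 0 TPM in control EBs, against 7.08, 10.1 and 9.03 TPM in control ESCs (log2 fold change -6.16, standard error 0.36, adjusted p = 0.000325). Its paralog PIWIL2 rose, at 1.83, 2.20 and 1.02 TPM in control EBs, against 0.184, 0.146 and 0.227 TPM in control ESCs (log2 fold change 2.59, standard error 0.47, adjusted p = 0.0067), a call lost without line #17 (adjusted p = 0.0525).

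RNA-binding regulators parted as well, with 13 of 20 lower and 4 higher. MBNL2, a muscleblind splicing factor of differentiated cells, rose, at 77.1, 59.7 and 70.1 TPM in control EBs, against 1.79, 3.11 and 3.82 TPM in control ESCs (log2 fold change 4.58, standard error 0.28, adjusted p = 0.000334). TRIM71, a let-7 target of early embryos, fell, at 54.1, 66.0 and 42.8 TPM in control EBs, against 283, 227 and 195 TPM in control ESCs (log2 fold change -2.12, standard error 0.14, adjusted p = 0.000402). PTBP1, a splicing repressor, was at 137, 178 and 147 TPM in control EBs, against 542, 509 and 513 TPM in control ESCs. All 3 were without overlap.

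Of 22 tested imprinted genes 12 were higher and 5 lower, and several of those that rose act on fetal growth. IGF2, the fetal growth factor, was at 2084, 2089.5 and 2275 TPM in control EBs, against 0.693, 1.97 and 1.21 TPM in control ESCs (log2 fold change 10.70, standard error 0.27, adjusted p = 0.000204). DLK1, a Notch-like surface protein, was at 478, 223 and 437 TPM in control EBs, against 3.23, 4.13 and 4.54 TPM in control ESCs (log2 fold change 6.48, standard error 0.28, adjusted p = 0.000256). PLAGL1, a zinc finger factor that induces growth genes in mouse, was at 91.9, 45.0 and 63.5 TPM in control EBs, against 0.644, 0.844 and 0.941 TPM in control ESCs (log2 fold change 6.15, standard error 0.31, adjusted p = 0.000273). The lines were within a narrow range for IGF2, and no library of the 3 overlapped between the stages. SNRPN, of the Prader-Willi region, fell, at 12.7, 10.8 and 9.07 TPM in control EBs, against 72.6, 72.3 and 50.9 TPM in control ESCs (log2 fold change -2.57, standard error 0.12, adjusted p = 0.000263). Use of the parental alleles was not measured.

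Interferon-stimulated and antigen presentation genes were higher in every control EB. Of 23 tested members 20 were higher, 15 of them strongly, and 1 was lower (median log2 fold change 2.85), with 19 or 20 higher without any single line. The 23 members summed to 3648, 3680.3 and 6498 TPM in control EBs, against 424, 314 and 434 TPM in control ESCs (exact permutation test, two-sided p = 0.1, the smallest possible). IFI6, a mitochondrial antiviral protein, was at 1439, 1603 and 2235 TPM in control EBs, against 3.41, 1.31 and 4.74 TPM in control ESCs (log2 fold change 9.23, standard error 0.31, adjusted p = 0.000209). ISG15, a ubiquitin-like modifier, was at 35.5, 56.3 and 133 TPM in control EBs, against 0, 0.344 and 0.238 TPM in control ESCs (log2 fold change 8.03, standard error 0.39, adjusted p = 0.000263). B2M, the light chain of MHC class I, was at 1354, 1045 and 2658 TPM in control EBs, against 229, 160.0 and 274 TPM in control ESCs (log2 fold change 2.85, standard error 0.16, adjusted p = 0.000288). EB #37 had the highest level of the control EBs in 21 of the 23 members (29.2% of all genes tested) and EB #13 the lowest in 18 (28.6%). IFIH1, a sensor of viral RNA, was at 27.1, 33.0 and 45.5 TPM in control EBs, against 4.01, 1.84 and 3.72 TPM in control ESCs. IRF1, a factor induced by interferon gamma, was the member that fell, at 10.3, 11.4 and 15.4 TPM in control EBs, against 22.3, 20.2 and 25.8 TPM in control ESCs, and neither IFIH1 nor IRF1 overlapped between the stages.

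Chemokine and NF-kB genes moved both ways, with 9 of 26 higher and 10 lower, against 23.9% and 38.5% of all genes tested. CXCL10, an interferon-induced chemokine, was at 5.38, 2.76 and 12.3 TPM in control EBs and listed at 0 TPM in all control ESCs. CXCL12, which guides migrating cells, fell, at 0.0432, 0.0624 and 0.0434 TPM in control EBs, against 18.2, 16.8 and 12.3 TPM in control ESCs (log2 fold change -6.71, standard error 0.31, adjusted p = 0.000261). TNF, an inflammatory cytokine, fell too, at 56.3, 49.3 and 23.7 TPM in control EBs, against 331, 423 and 159 TPM in control ESCs (log2 fold change -2.80, standard error 0.13, adjusted p = 0.000263). Of 13 complement genes 8 were higher and 1 lower, with 3 lower without line #37. C3, the central component, was at 966, 931 and 661 TPM in control EBs, against 5.22, 3.15 and 5.12 TPM in control ESCs (log2 fold change 7.55, standard error 0.23, adjusted p = 0.000209). CD59, which blocks the attack complex, was at 1078, 959 and 1224 TPM in control EBs, against 59.2, 53.6 and 55.6 TPM in control ESCs (log2 fold change 4.27, standard error 0.10, adjusted p = 0.000183). Both were higher in each control EB than in any control ESC.

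**Figure D4:**
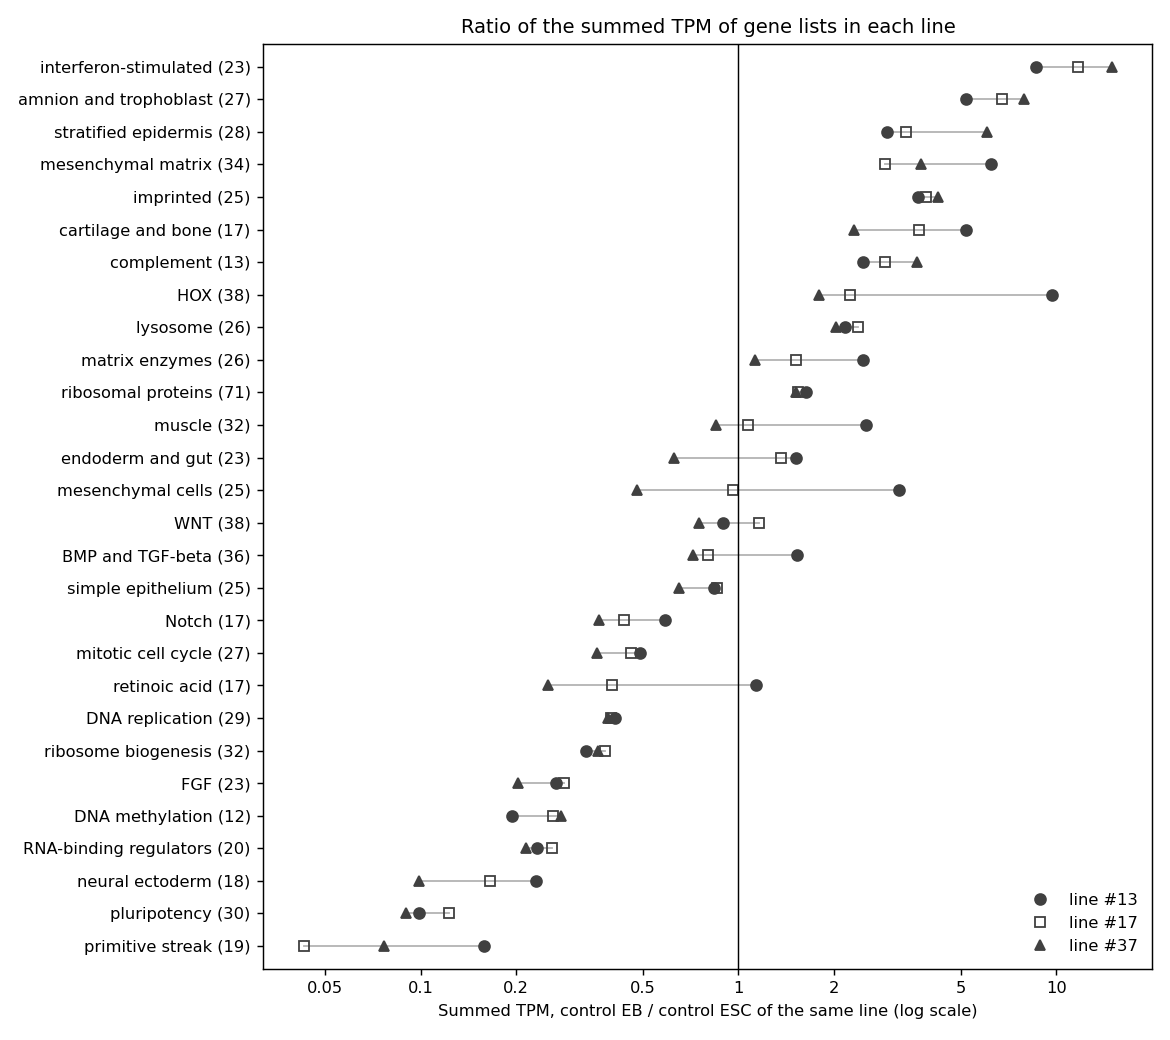
Ratio of the summed TPM of 28 gene lists, control EB over control ESC of the same line (x axis, log scale), with 1 symbol per line and a line at 1. The interferon-stimulated list lies furthest to the right and the primitive streak and pluripotency lists furthest to the left by their means, while lines #13 and #37 fall on opposite sides of 1 for muscle, mesenchymal cells, endoderm, BMP and TGF-beta, and retinoic acid.

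Lysosomal genes rose in 16 of 26 members and fell in 2. CTSD, a lysosomal protease, was at 3902, 5304 and 3731 TPM in control EBs, against 494, 499 and 616 TPM in control ESCs (log2 fold change 3.00, standard error 0.17, adjusted p = 0.000294). CTSZ, another, was at 923, 635 and 949 TPM in control EBs, against 70.4, 64.3 and 85.2 TPM in control ESCs (log2 fold change 3.50, standard error 0.11, adjusted p = 0.000209). TFEB, the factor that switches on lysosomal genes, was at 18.2, 25.2 and 20.6 TPM in control EBs, against 1.79, 1.01 and 2.35 TPM in control ESCs (log2 fold change 3.62, standard error 0.33, adjusted p = 0.000815). All 3 were higher in each control EB than in any control ESC. The calls of glycolytic and hypoxia genes had no common direction, with 8 of 31 higher and 11 lower, near the 23.9% and 38.5% of all genes tested. There were 15 higher and 9 lower after quantile normalization, and 4 higher without line #17. Their summed TPM was lower in each line, at 7901, 8017 and 7357 TPM in control EBs, against 10951, 11097 and 11618 TPM in control ESCs. The mean sum in control EBs was 0.691 times that in control ESCs, and 0.782 times without the most abundant member, GAPDH. PFKM, the muscle-type phosphofructokinase, fell, at 30.2, 28.0 and 25.3 TPM in control EBs, against 198, 252 and 196 TPM in control ESCs (log2 fold change -2.94, standard error 0.12, adjusted p = 0.000256). VEGFA, a vessel growth factor induced by hypoxia, rose, at 55.3, 71.2 and 41.0 TPM in control EBs, against 4.45, 2.84 and 6.46 TPM in control ESCs (log2 fold change 3.62, standard error 0.38, adjusted p = 0.00112). In cholesterol synthesis 11 of 21 were lower and 4 higher, with 7 lower and 2 higher without line #17. MVD, a mevalonate enzyme, was at 72.3, 63.5 and 50.0 TPM in control EBs, against 197, 220.2 and 193 TPM in control ESCs (log2 fold change -1.73, standard error 0.13, adjusted p = 0.000496). Among stress genes 13 of 27 were lower and 6 higher. EGR1, an immediate early gene, was at 17.9, 16.3 and 6.58 TPM in control EBs, against 215, 197 and 64.6 TPM in control ESCs (log2 fold change -3.48, standard error 0.12, adjusted p = 0.000209). PMAIP1, the p53 target NOXA, was at 6.63, 7.47 and 12.1 TPM in control EBs, against 238, 275 and 173 TPM in control ESCs (log2 fold change -4.72, standard error 0.30, adjusted p = 0.000352). DDIT4, an inhibitor of mTOR, rose, at 190.4, 195 and 163 TPM in control EBs, against 8.94, 11.4 and 18.5 TPM in control ESCs (log2 fold change 3.87, standard error 0.26, adjusted p = 0.0004). The stages were separate in each of these genes.

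The most abundant transcripts changed order. LOC108593893, which the RefSeq table does not annotate, held the first place in control EBs, at 17282, 23771 and 19395 TPM in control EBs, against 68.1, 68.9 and 62.8 TPM in control ESCs (log2 fold change 8.23, standard error 0.11, adjusted p = 6.42e-05). LGALS1, galectin-1, came next, at 14983, 13900.2 and 15172 TPM in control EBs, against 4349, 5734 and 4794 TPM in control ESCs. Its call was lost after quantile normalization (log2 fold change 0.58, adjusted p = 0.0606). CST3, the protease inhibitor cystatin C, was at 8171, 7474 and 8150.2 TPM in control EBs, against 1445, 1220.1 and 1230.4 TPM in control ESCs. The ribosomal protein genes RPS18, RPL13A, RPL37, RPL37A and RPS12, with EEF1A1 and the ferritin gene FTL, filled the other places of the first 10 in control EBs. Quantile normalization also removed the limma calls of RPS18 (adjusted p = 0.616) and RPL13A (adjusted p = 0.16). In control ESCs EEF1A1, a translation elongation factor, was first, at 9935, 8222 and 8391 TPM in control EBs, against 6684, 6909 and 6052 TPM in control ESCs. Its small increase was lost without line #13 (adjusted p = 0.0749) or #37 (adjusted p = 0.0686), and reversed after quantile normalization. HSP90AA1, a chaperone, was among the first 10 in control ESCs and fell, at 1923, 1823 and 2007 TPM in control EBs, against 5625, 3756 and 4355 TPM in control ESCs (log2 fold change -1.24, standard error 0.13, adjusted p = 0.00113). PTMA, prothymosin alpha, also fell, at 1016, 1287 and 1381 TPM in control EBs, against 4845, 4166 and 4123 TPM in control ESCs.

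By a plain rule on levels, some genes were present at 1 stage only. Counting genes under 0.5 TPM in all 3 libraries of a stage and at 5 TPM or more in all 3 of the other, 91 (79 of them with a name) were present in control EBs and 109 (92 named) in control ESCs. The names that follow, except DPPA3, were picked after their values were seen. PLET1, a marker of trophoblast progenitors in mouse, was at 8.98, 45.1 and 193 TPM in control EBs and listed at 0 TPM in all control ESCs. PITX1, a factor of hindlimb and oral ectoderm, was at 52.4, 49.9 and 40.1 TPM in control EBs, against 0, 0.174 and 0.257 TPM in control ESCs. ASCL2, a factor of trophoblast and intestinal stem cells, was at 25.1, 32.9 and 21.5 TPM in control EBs, against 0.270, 0.153 and 0.356 TPM in control ESCs. PLET1 had the order of CGA over the lines, and the other genes were similar in all 3 control EBs. On the other side DPPA3, an egg and germ cell factor, was at 0.190, 0.366 and 0.191 TPM in control EBs, against 321, 116 and 149 TPM in control ESCs (log2 fold change -9.03, standard error 0.42, adjusted p = 0.000261). NR5A2, a nuclear receptor of early embryos, was at 0.0541, 0.0261 and 0.0544 TPM in control EBs, against 42.7, 33.3 and 30.1 TPM in control ESCs. STRA8, which starts meiosis, was at 0, 0 and 0.0374 TPM in control EBs, against 9.35, 6.72 and 8.46 TPM in control ESCs.

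Lines agreed on the direction of most large changes. The log2 ratios of any pair of lines correlated at 0.83 to 0.88 across the genes tested, which are not independent of each other, and the median SD of log2(TPM + 0.1) was 0.26 in control EBs and 0.22 in control ESCs. The second principal component held 6.25% of the variance and set EB #37 apart from EBs #13 and #17. Among named genes with 20 TPM or more in at least 1 library, the log2 ratios of the lines were most unequal in GC, followed by CYTL1, SERPINA1, LIN28A, LUM, CGA, FOSB, TGFBI, ASPRV1 and FBN2. CYTL1, a secreted protein of cartilage, was at 4.61, 137 and 0 TPM in control EBs, against 2.72, 6.11 and 12.5 TPM in control ESCs. ASPRV1, an epidermal protease, was at 0.352, 0.883 and 29.6 TPM in control EBs, against 1.10, 0.603 and 1.25 TPM in control ESCs. FOSB, an immediate early factor, was at 2.99, 13.5 and 35.8 TPM in control EBs, against 33.7, 27.9 and 5.68 TPM in control ESCs. In CYTL1 and ASPRV1 a single control EB held nearly all of the signal, #17 in the one and #37 in the other. LUM, the proteoglycan lumican, was at 871, 238 and 889.9 TPM in control EBs, against 0.544, 11.3 and 16.1 TPM in control ESCs (log2 fold change 6.85, standard error 1.14, adjusted p = 0.00486). TGFBI, a matrix adaptor, was at 81.6, 35.4 and 56.3 TPM in control EBs, against 3.19, 50.2 and 94.9 TPM in control ESCs. FBN2, fetal fibrillin, was at 14.3, 5.97 and 1.87 TPM in control EBs, against 5.07, 26.9 and 40.1 TPM in control ESCs. In these 3 matrix genes ESC #13 was the lowest control ESC. FBN2 passed as lower without line #13 (adjusted p = 0.00858), as did TGFBI (adjusted p = 0.0177), and FOSB did so without line #37 (adjusted p = 0.0359). GC passed as higher without line #37 (adjusted p = 0.0286). In each of these fits the line left out was the only one whose ratio had the opposite sign. Only lines of the same sign remained, so these calls follow from that choice and are no added support.

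**Figure D5:**
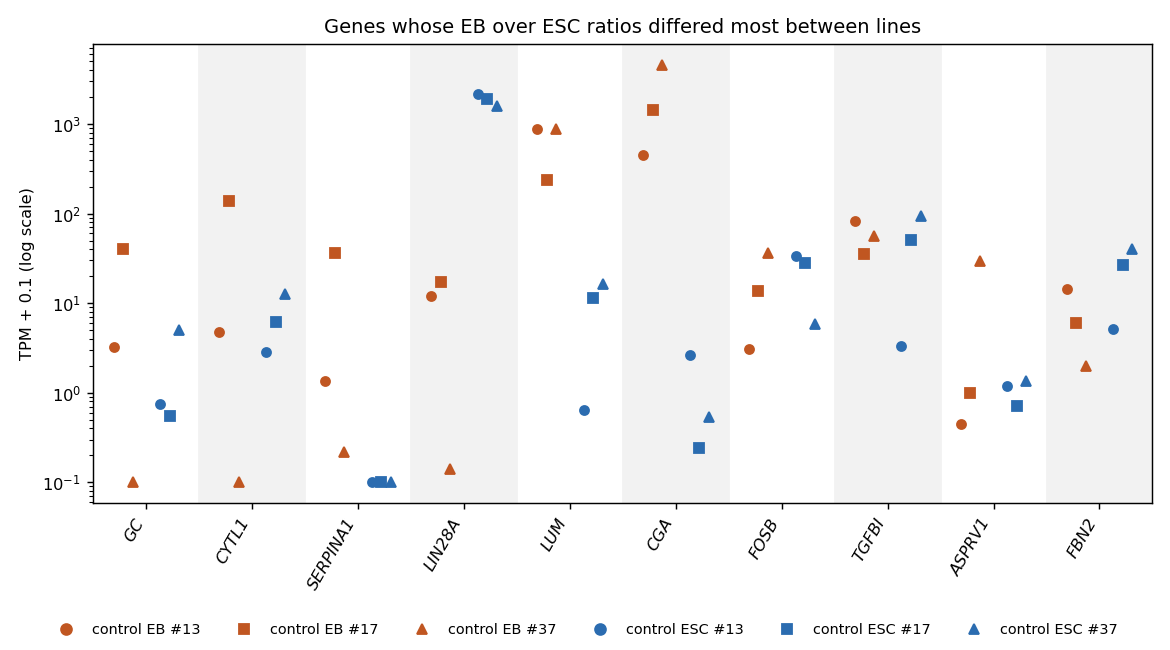
TPM of the 10 named genes whose log2 ratios differed most between lines (y axis, TPM + 0.1 on a log scale), control EBs left of control ESCs for each gene, with 1 symbol per line. In GC, CYTL1 and SERPINA1 the highest control EB is #17, in CGA, FOSB and ASPRV1 it is #37, and in LUM, TGFBI and FBN2 the lowest control ESC is #13.

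Lines made by nuclear transfer from wild-type fibroblasts (ntEB WT and ntESC WT, #30, #53 and #61) share no library with the control lines. Their EB and ESC libraries came in the same separate tables as those of the control lines. A difference tied to the table or to handling of a stage would therefore recur in them, and their agreement cannot set it apart from stage. Of the 1519 genes strongly higher in control EBs, 79.3% were higher in ntEB WT than in ntESC WT in all 3 lines, against 20.8% of all genes tested. Of the 1639 strongly lower, 81.5% were lower in all 3 lines, against 41.4% of all genes tested. The median log2 ratio of the strongly higher genes was 1.90 in #30, 2.09 in #53 and 3.05 in #61, and 3.11 in the control lines, which chose the genes. A limma test of the difference between the WT and the control response over 16 libraries of 8 lines, GFP lines included, with the line as a block, called 0 of 16473 genes (0%) at an adjusted p under 0.05 and 679 at an unadjusted p under 0.05. CGA was at 176, 43.7 and 1266 TPM in ntEB WT, against 5.75, 1.57 and 3.45 TPM in ntESC WT. IGF2 was at 3690.1, 5549 and 488 TPM in ntEB WT, against 36.0, 104 and 0.554 TPM in ntESC WT. COL3A1 was at 12953, 5525 and 459.8 TPM in ntEB WT, against 119.6, 102 and 1.44 TPM in ntESC WT. In IGF2 and COL3A1 the ntEB WT libraries #30 and #53 exceeded every control EB, and ntEB WT #61 lay below every control EB.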

How the data were processed

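RNA-seq (stranded mRNA libraries, read pairs of 100 bases) was done on marmoset EBs and ESCs. The authors trimmed reads with fastp, mapped them on calJac4 by STAR (uniquely placed reads, 1 mismatch at most), ran featureCounts, left out the sex chromosomes and computed TPM in Python; annotation and strand setting: not given in the sources used here. The deposited TPM values came as an EB table of 22803 genes and an ESC table of 22330 genes. TPM keeps no depth, so counts per library, intervals and detection limits could not be given. Precision rests on the spread of the 3 lines, which limma draws towards that of genes of similar level. The printed standard errors are therefore below what the 3 lines alone would give for genes with very unequal lines, such as CGA.

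From these tables the 3 sex chromosome genes that remained were dropped, and shared genes averaging 0.5 TPM or more over 6 libraries were tested on log2(TPM + 0.1) with limma 3.58.1 (R 4.3.3; lmFit, eBayes with trend), with the line as a block and Benjamini-Hochberg adjustment over 16178 genes (threshold 0.05). The 2 libraries of a line come from the same cell line, so the line numbers pair them. As a check, deviations from the stage means correlated at 0.04, 0.28 and 0.15 within lines #13, #17 and #37 and at -0.20 to 0.03 between lines. Deviations of a stage sum to 0 over its 3 libraries, so this contrast is partly built in. The value within #13 was close to that of EB #37 with ESC #13 (0.03), so the check does not set that pair apart. Without the block 3865 genes were higher and 6219 lower. Of the 16178 genes, 3328 have LOC identifiers only. Summed TPM of lists was compared by exact permutation of the 6 libraries, without pairing by line. Many lists had the smallest possible p of this test, 0.1, the neural ectoderm and hedgehog lists among them. That value therefore does not set a list apart. The fit was tested on simulated data. The members and the gene lists were chosen with earlier results of these data known. Genes named are list members (about 8 a list, largest changes first), the 12 largest increases and decreases among called genes with 1 sign in all 3 lines and at least 10 TPM in each library of the higher stage, the 10 most abundant genes of each stage, and the 10 with the most unequal log2 ratios among genes reaching 20 TPM. LOC identifiers were left out of the increases, decreases and unequal ratios. Some list members, such as those that ran against their list, were picked after their values were seen. Alternatives were other pseudocounts, filters, scalings, libraries and fits. Promoter motifs were not analysed here, nor was any sequence.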

Additional observations from a re-analysis of the deposited data

Results flagged for a closer look

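The EB table holds 1619 genes that the ESC table does not list, and these entered no comparison above. The 10 of them with a gene name and at least 5 TPM in all 3 control EBs are given here, as means over those libraries. LGALS20, of the galectin cluster that primates express in placenta, averaged 546 TPM, at 139.7, 487 and 1011 TPM in lines #13, #17 and #37. LGALS19, of the same cluster, averaged 43.7 TPM. CLDN8, a tight junction claudin, averaged 131 TPM. OAS1, an interferon-stimulated enzyme, averaged 21.4 TPM and CLEC7A, a receptor for fungal glucans, 16.2 TPM. OMG averaged 16.8 TPM, FOLR3 15.1 TPM, SLC36A2 13.7 TPM, DEFB4B, a defensin, 6.58 TPM and CRYBA1, a lens crystallin, 6.52 TPM. No level in control ESCs is listed to set beside these values. Neither table lists a gene at 0 TPM in all its libraries, and why these genes are missing from the ESC table was not tested.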

How the results depend on the processing

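Counts of genes called higher ranged from 2652 (without line #17) to 4506 (quantile normalization) and of genes called lower from 4582 (without line #17) to 6787 (4 control ESC lines). Each stayed within 1.5 times the reported count. Strong calls moved further in a pair of settings, to 887 higher and 928 lower with a pseudocount of 1 TPM, and to 809 higher and 794 lower with the minimum mean raised to 5 TPM, where fewer genes are tested. Leaving out 1 line gave 1400 to 1514 strongly higher and 1518 to 1680 strongly lower. Without the replicate block, that is without pairing by line, 3865 were higher and 6219 lower, and the difference from the WT lines again had 0 genes called (595 at an unadjusted p under 0.05). Genes present at 1 stage only numbered 76 to 113 in control EBs and 99 to 125 in control ESCs under 3 other rules, of which entering genes of 1 table at 0 in the other was chosen after seeing the data. Of 192 tested genes named above 181 were called, and 173 of these kept direction and call without each line.

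Of the called genes named above EEF1A1 alone changed sign in an alternative, with a log2 fold change of -0.86 after quantile normalization. Named genes that were not called changed sign as follows, the cause being not tested. Without 1 line, log2 fold changes ran from -1.70 to 0.37 in ACTC1, -0.46 to 2.47 in ASPRV1, -3.12 to 2.60 in CYTL1, -2.24 to 0.80 in FOSB, -1.77 to 4.15 in GC and -0.63 to 2.07 in TGFBI. CYTL1 was at 0.37 with a pseudocount of 1 TPM, GC at -0.083 with a pseudocount of 0.01 TPM and FTL at -0.53 after quantile normalization. In the fit over 16 libraries the calls of 12 named genes were lost with their fold changes the same, those of AXIN2, DNMT1, EEF1A1, ELN, FBLN5, FGF2, ISL1, KRT8, LIN28B, PECAM1, SFRP2 and WNT6.

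TPM keeps no depth, so which low values are within counting error cannot be said. The planned promoter motif counts were not run, as no promoter sequences were used here.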

Other observations

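Genes of the EB table alone also differed between the control EBs. TTR, the transthyretin of liver and yolk sac, was at 9.66, 186 and 0.313 TPM, and SPINK1, a trypsin inhibitor, at 8.72, 177 and 0 TPM in lines #13, #17 and #37. Both were high in EB #17, where SERPINA1 and GC were high too, and low or at 0 in EB #37. These 2 genes were picked after their values were seen.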
